A study of Mus musculus with 2 samples.

Results

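Semaphorins are secreted or membrane-bound guidance proteins, and plexins and neuropilins are the receptors that read them. The members were chosen by gene symbol, after Ensembl identifiers of the deposited tables were matched to GENCODE M21. The rule took every semaphorin of classes 3 to 7, every plexin of groups A to D and both neuropilins. It found 31 of the 43309 nuclear mouse genes: 20 semaphorins, 9 plexins and 2 neuropilins. The rule used no measured value, but it was set with earlier results of these data known.

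The samples were hindbrain RNA of newborn mice of strain B6NCrl, with 1 library from pup 1 (replicate 1) and 1 from pup 3 (replicate 2). Both animals were at postnatal day 0. The input to each was 13 pg of RNA of over 200 nt, an amount given as 1 cell-equivalent, by a Smart-seq protocol, in which full-length cDNA is amplified from very little RNA. Both pups carry the same donor record, neither was treated, and their sex was not collected. With 1 library per pup, a difference between the pups has no replicate check, and it cannot be told apart from the spread between 2 preparations of so little RNA.

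Secreted class 3 semaphorins bind a neuropilin, which holds the ligand but has only a short cytoplasmic tail, and a plexin of group A carries the signal into the cell. Most membrane-bound semaphorins of classes 4 to 7 bind plexins directly, and the plexin's cytoplasmic GTPase-activating domain then lowers the activity of small GTPases and loosens the growth cone's grip. In the developing hindbrain and cerebellum these signals are known for steering axons and for guiding migrating granule cells and facial motor neurons. Transcripts of one gene can encode receptors with different tails, so the sequences that separate the forms of a neuropilin are shown first.

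The neuropilin coding ends are shown because the libraries differed in which Nrp2 end their counts lay on. Coordinates are 1-based on GRCm38 (mm10), all on the plus strand, and the sequences are from GENCODE M21 transcripts. Each line holds the last 60 coding bases before the stop codon, with the last 9 bases in capitals.
Nrp1, chr8:128502752-128502811: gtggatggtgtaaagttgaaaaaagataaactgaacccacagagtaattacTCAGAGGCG
Nrp2 form a, chr1:62815575-62815634: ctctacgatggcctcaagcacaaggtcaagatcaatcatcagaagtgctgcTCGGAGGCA
Nrp2 form b, chr1:62795927-62795986: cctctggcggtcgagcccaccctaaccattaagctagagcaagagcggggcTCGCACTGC
Position by position, the Nrp2 a end matched Nrp1 at 7 of the last 9 bases, and the b end matched it at 3. Over all 60 bases the a end matched Nrp1 at 29 positions and the b end at 15. The a end is the one known to close, as Nrp1 does, in a motif that binds the PDZ domain of the adaptor Gipc1.

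Inserts separate the Nrp2 forms further. The first line below is the donor exon, chr1:62786281-62786316, whose last 15 bases (5 codons, in capitals) are absent from the short form of the exon. The second is a whole exon of 51 bases (17 codons), chr1:62812534-62812584, which 2 of the 6 protein-coding Nrp2 transcripts hold. It lies downstream of the b end, so only forms with the a end hold it.
Nrp2 donor exon: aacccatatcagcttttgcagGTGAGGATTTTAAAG
Nrp2 cassette exon: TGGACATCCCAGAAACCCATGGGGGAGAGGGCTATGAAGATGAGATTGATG
The third is a whole exon of 57 bases (19 codons) of the transmembrane ligand Sema6d, chr2:124660705-124660761, held by 3 of its 8 protein-coding transcripts. It is shown because the share of Sema6d counts on it also differed between the libraries.
Sema6d small cassette exon: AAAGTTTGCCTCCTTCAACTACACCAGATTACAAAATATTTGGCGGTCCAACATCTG

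The nuclear genes held 33462210 expected counts in pup 1 and 28285749 in pup 3. An expected count is estimated, because reads that fit several transcripts are divided between them. The 31 members together took 0.123% of them in pup 1 and 0.129% in pup 3. Levels are in TPM, which divides counts by transcript length and scales them to a fixed total, here that of the nuclear genes. Ratios between the pups are given as the ratio of shares of nuclear counts with a 95% exact interval that covers counting error only, or on the log2(TPM + 1) scale where stated. Reads without molecular identifiers are not independent molecules, and the intervals do not cover the loss of molecules before sequencing. Where a library held 0 counts, the fold is a lower bound against 3 counts in that library, which is 0.0897 CPM (counts scaled to a fixed total of nuclear counts) in pup 1 and 0.106 in pup 3.

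The tissue markers matched the label in part. Of 10 hindbrain genes 6 were detected in both libraries (expected count of at least 5), led by Hoxb5 (93.2 TPM in pup 1 and 124 in pup 3) and Zic1 (26.9 and 14.2), while Hoxb2 and En2 had 0 counts in both. The forebrain genes Emx1, Emx2, Dlx1, Dlx2, Six3 and Lhx2 had 0 counts in both. All 8 neuronal markers were detected in both, led by Tubb3 (3905 and 2044 TPM) and Stmn2 (2301 and 1554), with a summed level of 8894 TPM in pup 1 and 6696 in pup 3. Although these were lower in pup 3, 5 of the 8 were higher there in TPM, and the median log2 ratio of the 8 was 0.04. Examples were Elavl4 (149 and 328 TPM) and Map2 (203 and 377). The counts of Elavl4, 9096 in pup 1 and 7338 in pup 3, did not show that order. Also detected in both were 7 of 8 astrocyte and radial glia markers, led by Apoe (3536 and 3225 TPM) and Fabp7 (2791 and 3012), and 7 of 8 meningeal ones, led by Ptgds (2333 and 4325) and Dcn (84.6 and 167). Their summed levels were 8121 and 7435 TPM and 2697 and 4833 TPM. Ptgds made up most of the meningeal sums. Of 7 meningeal markers tested, 0 were over 4-fold higher in pup 3 and 1, Col3a1 (71.7 and 17.1 TPM), was over 4-fold higher in pup 1. The libraries thus hold RNA of mixed cell types. In such bulk RNA, fewer cells of a type and less RNA per cell cannot be told apart.

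Of the 31 members 18 were detected in both libraries (58.1%), beside 37.8% of 21461 protein-coding genes. The pup 1 library alone held another 6, the pup 3 library alone held 2, and 5 passed in neither. Both neuropilins, 6 of 9 plexins and 10 of 20 semaphorins were detected in both. In pup 1 alone 24 members were detected (77.4%, beside 50.02% of protein-coding genes), and all 9 plexins were among them. In pup 3 alone 20 were detected (64.5%, beside 43.2%), with 6 of the 9 plexins.

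**Figure D1:**
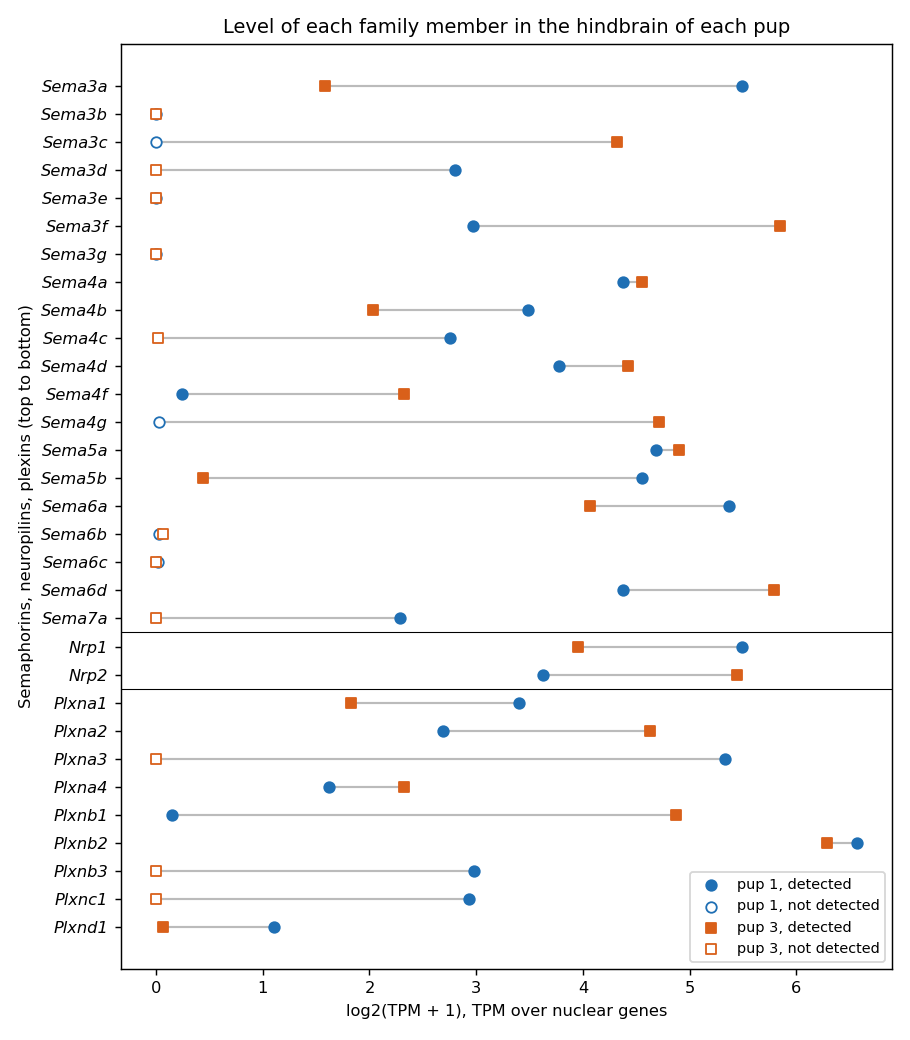
Level of each of the 31 members in pup 1 (circles) and pup 3 (squares), as log2(TPM + 1), with semaphorins above, then neuropilins, then plexins. Open marks are not detected (expected count under 5), and a gray line joins the pups: 6 members have a filled circle with an open square, and 2 the reverse.

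Summed over genes, ligands and receptors each differed by far less between the pups than most single members did. The 20 semaphorins summed to 217 TPM in pup 1 and 252 in pup 3 (234 ± 24.8, SD, n = 2). The 11 receptors summed to 220.5 and 192 TPM (206 ± 19.9). The sums of the neuropilins, 55.4 and 57.0 TPM, and of the B plexins, 101 and 105 TPM, were nearest to equal, although each hid members that differed in opposite directions. Over protein-coding transcripts the B plexins summed to 48.0 and 38.3 TPM, while the neuropilins stayed at 55.4 and 56.9. The A plexins summed to 56.3 TPM in pup 1 and 30.3 in pup 3, an order that turned to 168.8 and 182 CPM by counts and to 21.9 and 23.7 TPM over protein-coding transcripts.

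Class 3 ligands, the secreted repellents, were led by different genes in the 2 pups. In each pup 3 of the 7 were detected, and 2 were detected in both. Sema3a, the founding collapsing factor of growth cones and a ligand of Nrp1 (ENSMUSG00000028883, chr5:13125414-13602565), had 3148 counts in pup 1 and 145 in pup 3, or 43.8 and 1.99 TPM. Its share of the counts was 18.4-fold higher in pup 1 (15.5 to 21.8). Sema3c, which binds both neuropilins and can attract axons (ENSMUSG00000028780, chr5:17574281-17730268), had 0 counts in pup 1 and 1508 in pup 3, where it reached 19.0 TPM. That share was at least 595-fold higher in pup 3. Sema3d showed the opposite order, with 795 counts (5.97 TPM) in pup 1 and 0 in pup 3, at least 224-fold lower in pup 3. Sema3a led the class in pup 1, and it was among the lowest detected members in pup 3.

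Sema3f, the class 3 ligand that acts through Nrp2 (ENSMUSG00000034684, chr9:107681500-107710475), had 378 counts in pup 1 and 924 in pup 3, a 2.89-fold higher share in pup 3 (2.56 to 3.27). In TPM the gap was wider, 6.84 against 56.3, which made Sema3f the highest semaphorin of pup 3. Most of that level came from short models: a 376-nt retained-intron transcript held 155 of the counts and 30.6 TPM in pup 3 and 0 counts in pup 1. Protein-coding transcripts of Sema3f held 5.24 TPM in pup 1 and 12.7 in pup 3. On the log2 scale the difference was therefore 2.87 over all transcripts and 1.14 over protein-coding ones. The remaining class 3 genes, Sema3b, Sema3e and Sema3g, each had 0 counts in both. By counting alone these 3 zeros allow a share of up to 0.0897 CPM in pup 1 and 0.106 in pup 3, which leaves out molecules lost before sequencing. On the deposited TPM scale the upper credibility bounds were 1.61 and 1.84 for Sema3b. They were 0.0344 and 0.0393 for Sema3e, and 0.0282 and 0.0319 for Sema3g.

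Class 4 ligands are transmembrane proteins, and 4 of the 6 were detected in both pups. Sema4d, a known ligand of plexin B1, was 12.7 TPM in pup 1 and 20.4 in pup 3, a 1.68-fold higher count share in pup 3 (1.56 to 1.82). Sema4a was 19.8 and 22.4 TPM (21.1 ± 1.85, SD, n = 2), among the closest agreements of the family. That near equality covered different transcripts, since protein-coding ones held 4.90 TPM in pup 1 and 13.5 in pup 3, and a 2357-nt retained-intron transcript held 14.9 and 7.02. Sema4b, which is known to bind the scaffold PSD-95, had 783 and 210 counts, a 3.15-fold higher share in pup 1 (2.70 to 3.69).

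The remaining class 4 genes were each carried almost wholly by 1 pup. Sema4c and Sema4g are both known ligands of plexin B2, and they were found in opposite pups. For Sema4c, pup 1 held 405 counts (5.74 TPM) and pup 3 held 1 (0.0112 TPM). For Sema4g, pup 1 held 2 counts (0.0226 TPM) and pup 3 held 2044 (25.2 TPM). As shares of counts, Sema4c was 342-fold higher in pup 1 (61.1 to 13555) and Sema4g 1209-fold higher in pup 3 (334 to 9990). These ratios rest on 1 and 2 counts in the lower library and are not on the scale of the bounds set by 3 counts. Sema4f had 15 and 292 counts, a 23.0-fold higher share in pup 3 (13.7 to 41.7), at 0.181 and 4.01 TPM. Class 4 summed to 48.7 TPM in pup 1 and 75.1 in pup 3.

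Class 5 ligands carry thrombospondin repeats beside the semaphorin domain. Sema5a, which has 1 transcript in the tables and is known to bind plexin B3 (ENSMUSG00000022231, chr15:32244810-32696341), held 5479 counts in pup 1 and 5652 in pup 3, the most of any semaphorin in both. At 24.7 and 28.9 TPM (26.8 ± 2.97, SD, n = 2) it was among the most even members. Sema5b differed, with 1409 and 28 counts (22.5 and 0.357 TPM), a 42.5-fold higher share in pup 1 (29.3 to 64.2).

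Class 6 ligands are transmembrane proteins that bind A plexins directly. Sema6d, a ligand of plexin A1 (ENSMUSG00000027200, chr2:124089969-124667770), was the second gene of the family by mean level, at 19.8 TPM in pup 1 and 54.2 in pup 3 (37.0 ± 24.4, SD, n = 2). Its count share was 2.15-fold higher in pup 3 (2.05 to 2.26). Sema6a, a ligand of plexins A2 and A4 known for guiding granule cell migration in the cerebellum, was 40.4 and 15.7 TPM, with a count share 1.53-fold higher in pup 1 (1.45 to 1.62). The pair differed in opposite directions, and their class summed to 60.2 TPM in pup 1 and 70.0 in pup 3. Sema6b had 2 and 3 counts, and Sema6c 1 and 0, at or under the level that 3 counts set.

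Sema7a, which is held to the membrane by a lipid anchor and binds plexin C1, had 256 counts in pup 1 (3.86 TPM) and 0 in pup 3. Its receptor gene Plxnc1 had 953 counts in pup 1 (6.62 TPM) and 0 in pup 3. The shares were at least 72.1-fold and at least 269-fold lower in pup 3. Both genes of this ligand and receptor pair were thus detected in the same library only.

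The neuropilins were detected in both pups with opposite orders. Nrp1, the Sema3a co-receptor that also binds VEGF (ENSMUSG00000025810, chr8:128358604-128503363), had 5302 counts in pup 1 and 1540 in pup 3, or 44.1 and 14.5 TPM. Its share was 2.91-fold higher in pup 1 (2.75 to 3.08). Nrp2, the Sema3f co-receptor (ENSMUSG00000025969, chr1:62703285-62818695), had 1495 and 3785 counts, or 11.3 and 42.5 TPM. Its share was 3.00-fold higher in pup 3 (2.82 to 3.18). Nrp1 was the higher neuropilin in pup 1 and Nrp2 in pup 3. Neither difference passed 4-fold.

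The Nrp2 counts also lay on different coding ends, those whose sequences are given above. Transcripts with the a end held 74.9% of the counts on protein-coding Nrp2 transcripts in pup 1 and 36.2% in pup 3. Transcripts with the b end held 25.1% and 63.8%. In TPM the a forms were 8.49 in pup 1 and 11.5 in pup 3, while the b forms were 2.81 and 31.0. The higher Nrp2 level of pup 3 therefore lay mostly on the b end, whose 3' coding bases are unlike those of Nrp1.

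The inserts differed as well. The 51-base exon was on transcripts with 49.2% of the coding counts in pup 1 and 7.01% in pup 3. Only a forms hold it, so these shares also follow the shift between the 2 ends. Of the counts on a forms, 1120 in pup 1 and 1368 in pup 3, transcripts with the exon held 736 and 265. Among b forms, the transcript with the 15-base donor extension held 0 counts in pup 1 and 2178 in pup 3, and the transcript without it held 375 and 235. These 2 transcripts are 4216 and 6534 nt long and also differ outside the coding part, so their split is not one of the extension alone. The deposited credibility bounds of the extended b form, on the deposited TPM scale, reached at most 0.131 in pup 1 and ran from 23.8 to 26.8 in pup 3. Among a forms with the 51-base exon, the short transcript held 736 counts in pup 1 and 0 in pup 3, and the extended one 0 and 265. The deposited bounds of this short transcript were 3.32 to 5.59 TPM in pup 1 and at most 0.319 in pup 3. Those of the extended one were at most 1.25 and 1.39 to 2.60 TPM. Among a forms without that exon the extension could not be assigned. In pup 1 the deposited bounds of the extended and the short transcript, 0.0108 to 2.54 and 0.000286 to 2.53 TPM, overlapped almost fully. Likewise in pup 3 they were 0.185 to 7.22 and 0.515 to 7.76 TPM.

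Sema6d showed a smaller difference in its exons. Its 57-base exon, shown above, was on transcripts with 47.1% of the coding counts in pup 1 and 12.1% in pup 3. A 101-base form of an upstream exon was on 25.6% and 27.5%, and a 168-base exon was on 25.1% and 22.2%. The same transcript led in both pups, with 40.1% of the gene's TPM in pup 1 and 34.6% in pup 3. The values are for 1 library a pup, and the lengths of all 7 Nrp2 and 11 Sema6d transcripts were the same in the deposited tables and in GENCODE M21.

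**Figure D2:**
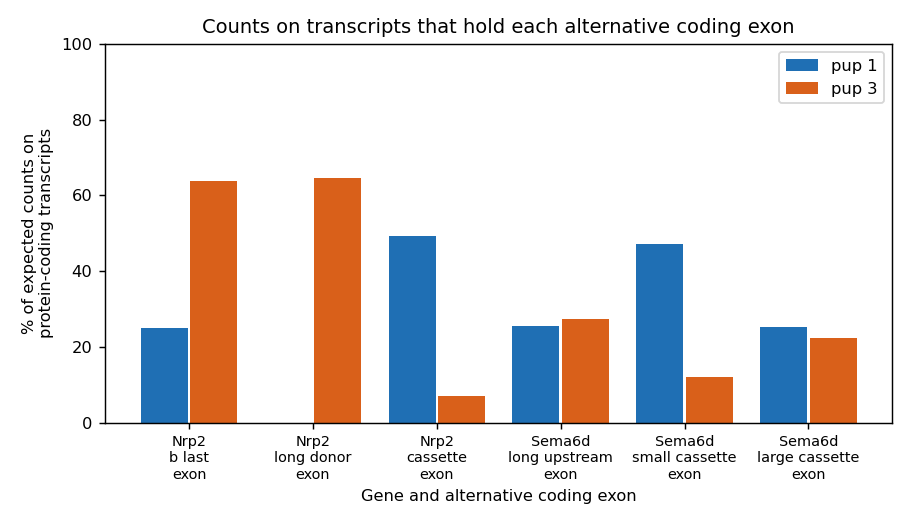
Percent of the expected counts on protein-coding transcripts of Nrp2 and Sema6d that lay on transcripts holding each named coding exon, in pup 1 (blue) and pup 3 (orange), with 1 library a bar and no error bar. The Nrp2 b last exon is at 25.1% and 63.8%, the Nrp2 cassette at 49.2% and 7.01%, and the 2 larger Sema6d exons are nearly level.

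The A plexins carry the signal of class 3 and class 6 ligands, and 3 of the 4 were detected in both pups. Plxna2 (ENSMUSG00000026640, chr1:194618218-194816869) had 954 counts in pup 1 and 3800 in pup 3, or 5.44 and 23.7 TPM, with a share 4.71-fold higher in pup 3 (4.39 to 5.06). Plxna1 had 1765 and 417 counts, or 9.54 and 2.56 TPM, with a share 3.58-fold higher in pup 1 (3.21 to 3.99). Plxna4 was low in both, at 2.07 and 3.997 TPM, with a share 2.02-fold higher in pup 3 (1.81 to 2.25). Plxna3, the receptor partner of Nrp2 for Sema3f, had 2381 counts in pup 1 and 0 in pup 3, at least 671-fold lower in pup 3. Of its 39.3 TPM in pup 1, protein-coding transcripts held 6.56, and a 984-nt retained-intron transcript held 18.3. The A plexin with the most counts was Plxna3 in pup 1 and Plxna2 in pup 3.

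The B plexins bind class 4 ligands and act on RhoA through PDZ-RhoGEF and LARG. Plxnb2, known for its part in cerebellar granule cell development (ENSMUSG00000036606, chr15:89155549-89180788), had the highest level of the family over all transcripts in both libraries, at 94.1 TPM in pup 1 and 76.8 in pup 3 (85.4 ± 12.2, SD, n = 2). Its counts were less even, with 6148 in pup 1 and 2014 in pup 3, a share 2.58-fold higher in pup 1 (2.45 to 2.71). An 841-nt non-coding transcript held 51.0 TPM in pup 1 and 39.7 in pup 3, and a 732-nt retained-intron transcript held 1.87 and 27.0. Protein-coding Plxnb2 transcripts held 41.0 TPM in pup 1 and 10.1 in pup 3, which ranked 3 and 13 among the 31 members on that scale, where Nrp1 (44.1) led in pup 1 and Sema6d (44.8) in pup 3. The log2 difference was -0.29 over all transcripts and -1.91 over protein-coding ones.

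Plxnb1, the Sema4d receptor (ENSMUSG00000053646, chr9:109095389-109119917), had 7 counts in pup 1 and 4378 in pup 3, or 0.113 and 28.2 TPM. Its share was 739.9-fold higher in pup 3 (359 to 1841), the largest difference among the 18 members detected in both. The opposite-strand gene Gm7628 overlaps its exons and had 4 and 0 counts. Plxnb3, a Sema5a receptor, had 848 counts in pup 1 (6.90 TPM) and 0 in pup 3, at least 239-fold lower. Plxnb3 is known from the oligodendrocyte lineage, of which 6 of 8 markers were detected in both pups. Their summed level was 572 TPM in pup 1 and 321 in pup 3, led by Mbp (302 and 199.6) and Cnp (137 and 67.7), with Olig2 at 2 and 0 counts and Sox10 at 15 and 0. Their part in the Plxnb3 difference was not tested.

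Plxnd1, the plexin that Sema3e binds without a neuropilin, had 162 and 6 counts (1.15 and 0.0447 TPM), a share 22.8-fold higher in pup 1 (10.3 to 63.1). Its ligand gene Sema3e had 0 counts in both libraries. Plxnd1 is best known from endothelium, of which 3 of 8 markers were detected in both pups, with a summed level of 213 TPM in pup 1 and 226 in pup 3. Single markers ran both ways: Cldn5 (85.3 and 156 TPM), Flt1 (0 and 41.4) and Tek (0.0226 and 17.3) were higher in pup 3, while Esam (73.7 and 0.145), Egfl7 (45.2 and 8.90) and Cdh5 (8.45 and 2.27) were higher in pup 1, like Plxnd1. Pecam1 had 19 and 3 counts, and Emcn 1 and 0. The median log2 ratio of the 3 markers detected in both was -1.53. The part of endothelial RNA in the Plxnd1 difference was not tested.

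Known ligands and receptors set side by side were higher in the same pup in some pairs and not in others. Sema3a (43.8 and 1.99 TPM) and Nrp1 (44.1 and 14.5) were both higher in pup 1, and Sema3f (56.3 in pup 3) and Nrp2 (42.5 in pup 3) were both higher in pup 3. Over protein-coding transcripts Sema3f was 5.24 TPM in pup 1 and 12.7 in pup 3. Plxna3, the Nrp2 partner for Sema3f, went the other way, at 39.3 TPM in pup 1 and 0 in pup 3. Sema4d was 12.7 and 20.4 TPM in the pups, while its receptor gene Plxnb1 was 0.113 and 28.2 TPM, both higher in pup 3 but by very different amounts. Sema5a was 24.7 and 28.9 TPM, while Plxnb3 was 6.90 and 0. For the Sema6a receptors, Plxna2 was higher in pup 3 and Sema6a in pup 1. These are levels in RNA of whole tissue, and they do not show which cells held either gene.

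Over 4-fold on the log2(TPM + 1) scale, among the 26 members that reached 50 expected counts in either library, 5 were higher in pup 3 (19.2%, beside 16.2% of 11245 protein-coding genes) and 8 were higher in pup 1 (30.8%, beside 23.6%). Those higher in pup 3 were Plxnb1, Sema3c, Sema3f, Sema4f and Sema4g. Those higher in pup 1 were Plxna3, Plxnb3, Plxnc1, Sema3a, Sema3d, Sema4c, Sema5b and Sema7a. The other 5 members, Sema3b, Sema3e, Sema3g, Sema6b and Sema6c, had too few counts. Both shares are near those of all protein-coding genes, so the members as a set were not set apart by these counts.

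Among the 18 members detected in both pups, 10 were higher in pup 3 and 8 in pup 1. Their log2 ratios of pup 3 over pup 1 ran from -4.11 for Sema5b to 4.71 for Plxnb1, with a median of 0.19, beside 0.14 over all protein-coding genes detected in both. The median size of the ratio, without its sign, was 1.496, beside 0.94 over all protein-coding genes detected in both and 1.15 over the 6170 of them within the members' range of levels. Over the 26 members detected in at least 1 pup, the median was -0.67 on the log2(TPM + 1) scale. With the members at 0 set to their bound it was -0.99 on the count share scale.

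Members detected in 1 pup only were also near the background share at like levels. Of the 16 members between 3 and 40 TPM in pup 1, 6 were not detected in pup 3, beside 30.9% of 5261 protein-coding genes of such a level. Of the 12 members between 3 and 40 TPM in pup 3, 2 were not detected in pup 1, beside 17.4% of 4131 genes. The 6 members detected in pup 1 only had a median of 6.295 TPM there.

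**Figure D3:**
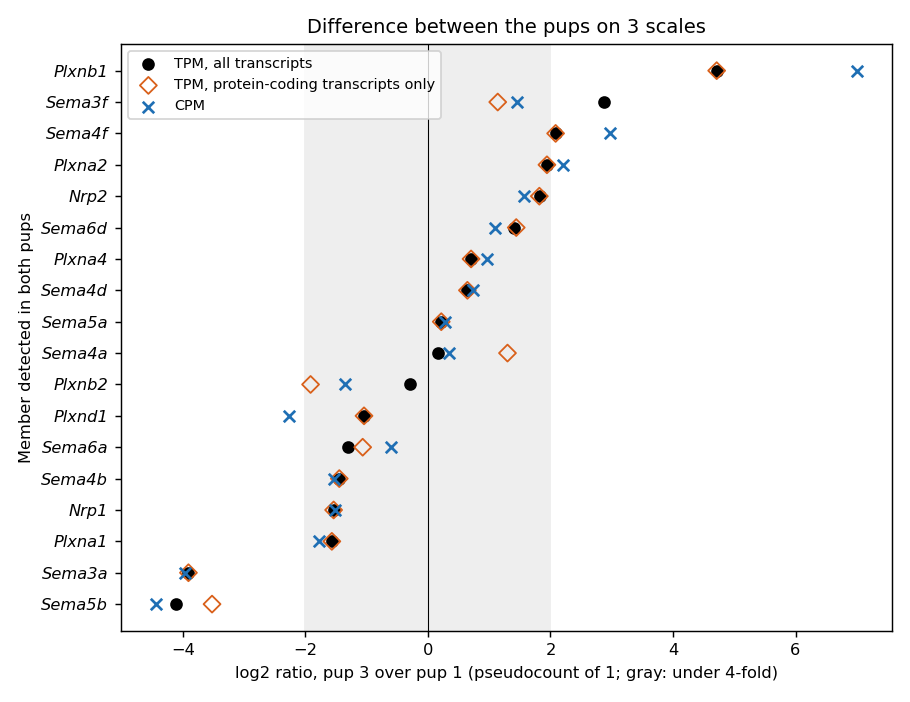
Log2 ratio of pup 3 over pup 1 for the 18 members detected in both, as TPM over all transcripts (black), TPM over protein-coding transcripts (orange diamonds) and CPM (blue crosses), each with a pseudocount of 1; the gray band is under 4-fold. When only protein-coding transcripts are taken, Sema3f moves from 2.87 to 1.14, Plxnb2 from -0.29 to -1.91 and Sema4a from 0.17 to 1.30. In CPM, Plxnb1 moves from 4.71 to 7.01 and Plxnd1 from -1.04 to -2.27. The marks of each other member lie closer together.

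The transcript with the highest percent of its gene's TPM was the same in both pups for 6 of 11 members with several transcripts and at least 50 counts in both (54.5%, beside 63.6% of 5563 protein-coding genes). The other 5 were Nrp2, Sema3a, Sema3f, Sema4a and Sema6a. For Sema3a, a 5930-nt transcript held 2063 counts in pup 1 and 0 in pup 3, where a 4085-nt transcript held all 145. For Sema6a, a 4123-nt protein-coding transcript held 1582 counts in pup 1 and 0 in pup 3, and a 6856-nt one held 936 and 1362. Protein-coding transcripts held under 50% of a member's TPM in 3 of 22 members in pup 1 and in 2 of 18 in pup 3, beside 11.7% and 12.8% of protein-coding genes. These members were Plxna3, Plxnb2 and Sema4a in pup 1, and Plxnb2 and Sema3f in pup 3.

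**Figure D4:**
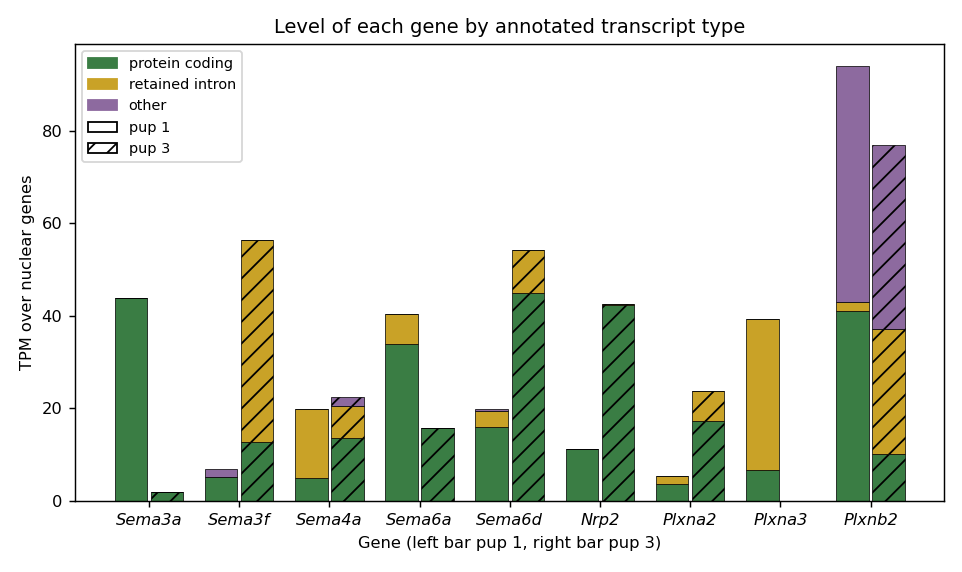
TPM of 9 members split by annotated transcript type (protein coding, retained intron, other), with pup 1 on the left and pup 3 hatched on the right of each pair. The non-coding types make up most of the Plxnb2 bar in both pups, of the Plxna3 bar in pup 1, where the gene was at 39.3 TPM, and of the Sema3f bar in pup 3 at 56.3 TPM.

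Among the membrane partners of these receptors, 8 of 18 genes were detected in both pups, while 3 passed in pup 1 alone, 1 in pup 3 alone and 6 in neither, beside 37.8% of protein-coding genes detected in both. The highest were adhesion molecules that assist neuropilins and plexins at the growth cone: L1cam, a Nrp1 partner, was 170.2 TPM in pup 1 and 97.4 in pup 3, and Alcam was 44.7 and 91.1. Itgb1, the integrin beta chain that Sema7a signals through, was 63.5 and 61.9 TPM, and Nrcam, the Nrp2 partner, was 55.5 and 57.2. Of 11 partners tested, 1 was over 4-fold higher in pup 3 and 4 in pup 1, beside 16.2% and 23.6% of protein-coding genes. The VEGF receptors that share the neuropilins were split between the pups, with Kdr at 15.8 and 0.982 TPM and Flt1 at 0 and 41.4. Ptk7, a plexin A1 partner, was 8.23 and 0.714 TPM.

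The plexin A1 partners of immune cells were found in pup 1 only, with Trem2 at 46.9 TPM and Tyrobp at 48.4 in pup 1 and both at 0 in pup 3. Tyrobp is also one of 8 microglial markers, of which 3 were detected in both pups, with summed levels of 209.9 and 194 TPM. They were led by C1qb (105.5 and 54.6 TPM) and C1qc (5.56 and 70.5). Of the others, Csf1r had 2027 and 0 counts and P2ry12 had 0 and 940. The part of microglial RNA in the Trem2 and Tyrobp difference was not tested.

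Inside the cell, 27 of 34 transducers and GTPase regulators were detected in both pups, beside the 37.8% of protein-coding genes. The highest were Cfl1, the actin-severing target of the LIM kinases (1796 TPM in pup 1 and 2334 in pup 3), and the collapsin response mediators Dpysl2 (1749 and 783), Dpysl3 (543 and 962) and Crmp1 (334 and 492). Of 32 tested, 3 were over 4-fold higher in pup 3 and 10 in pup 1, beside 16.2% and 23.6% of protein-coding genes. The 3 were the FERM-domain exchange factors Farp1 (17.2 and 78.0 TPM) and Farp2 (0 and 29.5), of which Farp2 is known to bind plexin A1 and activate Rac, and Mical2, of a family of oxidases that includes plexin-bound members (0.655 and 26.7). The 10 included Fyn, the kinase that phosphorylates A plexins (174.9 and 19.2 TPM), the GTPases Rnd1 (36.4 and 0), Rnd2 (114 and 11.9) and Rac1 (94.2 and 14.0), and Arhgap35 (134 and 18.4). The others were Mical3 (10.1 and 1.51), Rhod (23.1 and 0), Rras (21.1 and 0.246), Arhgef12 (9.09 and 0.726) and Limk1 (6.73 and 0). Expected counts of Farp1 (1490 in pup 1 and 1543 in pup 3) and Arhgap35 (3577 and 3035) were far closer than their TPM. Their place past 4-fold thus rests on the TPM scale. The median log2 ratio over the transducers and regulators detected in both was -0.33. Gipc1, the adaptor of the neuropilin tail, was 49.3 and 44.5 TPM.

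Heparan sulphate helps ligands dock on the neuropilins. Of 10 genes that process the ligands or build it, 8 were detected in both pups, beside 37.8% of protein-coding genes. Of 10 tested, 2 were over 4-fold higher in pup 3 and 2 in pup 1, beside 16.2% and 23.6% of protein-coding genes. Sdc3, a heparan sulphate core protein, was the highest at 91.1 TPM in pup 1 and 45.2 in pup 3. The sheddases Adam17 (40.8 and 55.2 TPM) and Adam10 (40.8 and 22.6), which cut membrane-bound members, and Ext2 (20.98 and 58.4), a chain-building enzyme, followed. Past 4-fold, Pcsk6 (0 and 4.91 TPM) and Ndst1 (0.881 and 33.0) were higher in pup 3, and Ext1 (17.3 and 0.971) and Gpc1 (37.98 and 0.0670) in pup 1. Furin, the convertase that activates class 3 ligands, had 206 counts in pup 1 and 0 in pup 3.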

How the data were processed

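RNA of 2 hindbrains was sequenced, 1 library a pup. For each library the authors deposited a table of genes and a table of transcripts, on mm10 with annotation M4, per the notes deposited with the tables. Per the file headers, these hold an expected count, TPM over everything listed, FPKM, and, for transcripts, the percent of a gene's TPM. The credibility bounds that the authors deposited are a signal on the TPM scale. The column layout is that of RSEM. The aligner, the counter, their versions and any use of strand are not stated in the sources used here, so overlapping genes cannot be told apart.

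Of 43346 mouse genes 42462 matched GENCODE M21 by stable identifier, and transcript types, coordinates and sequences came from it. TPM was rescaled over 43309 nuclear genes. Detection took an expected count of at least 5. The fold of 4 was taken on log2(TPM + 1), among genes that reached 50 expected counts in either library. Lower bounds used 3 counts. Ratio intervals are conditional binomial (Clopper-Pearson, 95%). With 1 group, no test was possible. The fold rule was tested on simulated data with counting error only, which cannot show how it performs on libraries from so little RNA. Python 3.11.15, pandas 2.3.3 and scipy 1.17.1 were used. Scaling factors came from edgeR 4.0.16 and DESeq2 1.42.0 on rounded expected counts, in R 4.3.3.

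The members, the pathway and marker lists and the thresholds were chosen with earlier results of these data known. Every member is named. Of each pathway list the 4 highest genes and those past 4-fold are named, and of each marker list those at 0 in both and the 2 highest. A marker covered by this rule is not reported here. Furin, Gipc1, the neuronal, meningeal, endothelial, oligodendrocyte and microglial genes and the transcripts named beyond this rule were chosen after their values were seen. Alternatives tried were other detection limits, thinning of pup 1, other pseudocounts, folds, minimum counts and scalings, and each library alone. The protein-coding-only TPM, the count share with a floor and other detection limits for the pathway lists were chosen after seeing the data.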

Additional observations from a re-analysis of the deposited data

How the results depend on the processing

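No paired analysis was possible because the labels give 1 group, so no groups share replicate numbers. Members detected in both libraries numbered 21, 16 and 14 at an expected count of at least 1, at least 10 and at 1 TPM, and 18 after thinning pup 1. Either library alone gave 20 to 24 detected members, 217 to 252 TPM for the semaphorins and 192 to 220.5 TPM for the receptors. The 5 members higher in pup 3 became 8 at a fold of 2 and 3 at a fold of 8. The 8 higher in pup 1 became 13 at a fold of 2, 3 at a fold of 8 and 3 with a pseudocount of 5. The mean semaphorin sum was 209 in deposited TPM and 140.2 in deposited FPKM, and the receptor sum 184 and 123. Over protein-coding transcripts these means were 182 and 126 TPM. At 1 TPM the list of ligand processing genes had 5 detected in both, in place of 8. Of 104 values for the 13 members past 4-fold under 8 other scales, 91 stayed past it with the same sign, and 6 members did so under all. Sema3f fell short in CPM (1.45), with edgeR (1.32) or DESeq2 (1.30) factors and over protein-coding transcripts (1.14), and Sema4f in deposited TPM (1.98) and FPKM (1.64). Plxna2 passed 4-fold in CPM (2.20), and Plxnd1 did too (-2.27). No detected member changed sign under these scales. The median over all protein-coding genes detected in both moved from 0.14 to 0.00 with DESeq2 factors, and that of the members from 0.19 to 0.15. It was -0.67, of the other sign, over members detected in at least 1 library. The ratio intervals cover counting error only, and how many molecules were lost from 13 pg of RNA before sequencing was not tested.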
